A study of Mus musculus with 4 samples.

Results

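The Esrrb locus was examined in the peaks of 2 chromatin immunoprecipitation sequencing (ChIP-seq) lists, one for the oocyte linker histone H1foo and one for AE4, an antibody used for the somatic H1 variants. The locus was taken as the Esrrb gene, chr12:86361117-86521628 in the mouse build mm10, with 50 kb on either side, and a peak belonged to it if any base overlapped chr12:86311117-86571628. It held 61 of the 97825 H1foo peaks and 16 of the 47493 AE4 peaks. All 4 libraries, 2 for each antibody, came from untreated mouse embryonic stem cells (strain 129S4/SvJae) in which mouse H1foo was overexpressed as an H1foo-GFP fusion. H1foo was pulled down with a rabbit polyclonal antibody made in the submitters' laboratory, and somatic H1 with the mouse monoclonal AE4. The antibody entry of the labels names AE4 for the latter libraries, while their extraction protocol speaks of an H1foo antibody in all 4; the grouping here follows the antibody entry and the sample titles. Cells without the fusion were not analysed here, so both lists describe chromatin that carries an added H1foo. The labels give no promoter for the fusion and do not say whether the cells are 1 clone, nor that the libraries came from separate cultures. The lists hold no expression values, so the cell type could not be checked against its markers.

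Each antibody has 1 list for its 2 libraries, with a position and the authors' score per peak and no value per library. There is thus no replicate error and no test of one antibody against the other, and the counts below describe these lists. How deeply the libraries were sequenced is unknown. Deeper libraries usually give longer lists, so a place without a peak need not lack binding. Not given in the sources used here is how the 2 libraries entered a list, what control was used, and whether AE4 recognises H1foo as well.

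Linker histone H1 sits on the nucleosome where DNA enters and leaves it, and its somatic variants are abundant in most nuclei. H1foo is the variant of the oocyte, which is replaced by somatic variants as the embryo develops. Esrrb, the oestrogen-related receptor beta, is an orphan nuclear receptor that binds DNA without a known natural hormone. In mouse embryonic stem cells it belongs to the naive pluripotency network with Nanog, Pou5f1, Sox2 and Tfcp2l1, it is held down by the repressor Tcf7l1, and its forced expression can sustain self-renewal.

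RefSeq places 2 start sites of Esrrb on the plus strand of the build GRCm38.p6, whose chromosome coordinates are those of mm10. The first is at position 86361117, and the second lies 60.5 kb further in, at 86421644. The 250 bases before each are shown because each of them was touched by a peak, and by a different antibody. The first stands at chr12:86360867-86361116 and the second at chr12:86421394-86421643. Capitals mark the bases inside a peak, of AE4 at the first start and of H1foo at the second.
Esrrb start 1: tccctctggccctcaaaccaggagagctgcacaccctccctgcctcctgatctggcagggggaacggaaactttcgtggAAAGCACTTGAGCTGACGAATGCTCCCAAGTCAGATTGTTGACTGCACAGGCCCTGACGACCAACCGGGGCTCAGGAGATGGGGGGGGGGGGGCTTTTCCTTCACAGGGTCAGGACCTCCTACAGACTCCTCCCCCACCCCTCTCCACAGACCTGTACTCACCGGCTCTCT
Esrrb start 2: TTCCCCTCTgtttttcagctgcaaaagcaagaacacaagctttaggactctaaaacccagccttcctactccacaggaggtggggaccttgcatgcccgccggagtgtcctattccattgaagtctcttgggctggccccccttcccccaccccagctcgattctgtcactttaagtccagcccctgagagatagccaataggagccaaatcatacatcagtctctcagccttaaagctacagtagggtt

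The AE4 peak at the first start, chr12:86360946-86361349, had a width of 404 bp and a score of 59.2, and covered 171 of the 250 bases before the start as well as the start itself. It overlapped no H1foo peak, and the nearest H1foo peak ended 1210 bp before the start. Gm40483, an lncRNA gene on the minus strand at chr12:86359049-86361172, begins inside the same AE4 peak, so the peak covers the starts of both genes. At the second start the order was reversed. An H1foo peak at chr12:86420847-86421402, with a score of 57.3, reached 9 bases into the window and ended 242 bp short of the start, and the nearest AE4 peak lay 4988 bp away. Of 21263 such windows of protein-coding genes, 12.4% overlapped an H1foo peak and 2.18% an AE4 peak. An AE4 peak without an H1foo peak, as at the first Esrrb start, was found at 140 windows or 0.658%. An H1foo peak without an AE4 peak, as at the second, was found at 2305 windows or 10.8%.

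The window before the first start had a GC content of 60.8% and 6 CpG dinucleotides, and that before the second 52.0% and 3, where the median over all windows was 55.6% and 10. Both were thus poorer in CpG than the median window. The 140 windows with AE4 alone had a median of 4 CpG dinucleotides, and the 2305 with H1foo alone a median of 9. The median was also 4 in the 324 windows with both, and 10 in the 18494 with neither. The element bound by oestrogen-related receptors, TCAAGGTCA, searched on both strands, had no match in either window and was present in 0.32% of all windows. The shorter AGGTCA, the core hexamer of nuclear receptor elements, which is contained in it, also had no match, against 12.8% of all windows. CCAAT had 1 match before the second start and none before the first, against 35.4% of all windows. AAGGTCA, the GC box GGGCGG and the TATA box TATAAA had no match in either, against 3.59, 42.6 and 11.6% of all windows. These matches describe letters only, within 250 bases.

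H1foo peaks lay across the whole locus, but not evenly. The gene held 44, or 27.4 per 100 kb, of which 1 reached past its end. The 50 kb before the gene held 8, or 16.0 per 100 kb, and the 50 kb after it held 10, or 20 per 100 kb, counting the peak across the gene end. The 60.5 kb between the start sites held 9 H1foo peaks, or 14.9 per 100 kb, and the 99.985 kb from the second start to the gene end held 35, or 35.01 per 100 kb. Peaks covered 8.19% of the bases between the starts and 26.4% of the bases after the second. H1foo peaks were thus denser along the stretch transcribed from both starts than along the stretch that only the first start transcribes.

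Within the gene, cut into 4 equal parts of 40.1 kb, the parts held 7, 10, 11 and 18 H1foo peaks in the direction of transcription, a peak across a border being counted in both parts. The last part was covered to 35.1% by H1foo peaks, and the first to 8.91%. By peak centre, 17 of 43 or 39.5% lay in the last part. In 543 genes of similar length and gene density with a known strand, described below, the last part also held the largest share, 29.8% of 3827 H1foo centres. Of 118 such genes with at least 10 H1foo peaks, 31 had a larger share in the last part than Esrrb, so its lean to the gene end was in the upper range but not outside it.

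The highest H1foo score of the locus, 303.8, belonged to the peak chr12:86425541-86427533, centred 4.89 kb after the second start. It was also the widest, at 1993 bp. In the whole list 1.64% of peaks had a higher score and 1.39% were wider. The next scores were 195.5 at chr12:86435376-86436350, 14.2 kb after the second start, and 182.6 at chr12:86554805-86556216, which lies 33.9 kb beyond the gene end and next to the pseudogene Gm52007. They were followed by 154.2 at chr12:86482986-86484003 and 152.5 at chr12:86525327-86526539, the latter 4.31 kb beyond the gene end. None of the 5 lay between the start sites. The highest score there was 111.8, at chr12:86392891-86393693, and the other 8 peaks between the starts scored between 56.3 and 86.6.

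Over the locus the H1foo scores ran from 50.1 to 303.8 with a median of 77.5, against a median of 73.2 in the whole list. A score of at least 100 was reached by 15 of 61 peaks, and by 26.7% of the whole list. Widths ran from 360 to 1993 bp with a median of 604 bp, against 560 bp in the whole list, and 11 of 61 peaks were at least 1 kb wide, against 12.1% of the list. Of these 11 wide peaks, 8 touched the gene, and 6 of those lay in its last 40.1 kb. The typical H1foo peak at Esrrb was therefore close in score and width to the list as a whole, while the peaks were many.

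The AE4 list was thinner, and did not show the same increase in peak number along the gene. The gene held 10 AE4 peaks, or 6.23 per 100 kb, and the 4 equal parts held 4, 3, 3 and 1, again with a peak across a border counted in both. The flanks held 4 before the gene, counting the peak at the first start, and 3 after it. Between the start sites lay 4 peaks, or 6.61 per 100 kb, and from the second start to the gene end 6, or 6 per 100 kb, so the AE4 density was nearly the same in both. The covered bases were 2.33% between the starts and 3.93% after the second. The median AE4 width was 395.5 bp between the starts and 641.5 bp after the second. The ratio of H1foo to AE4 peaks was 2.25 between the starts and 5.83 after the second, and 18 peaks stood against 1 in the last part of the gene. In the whole lists the ratio was 2.06.

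The highest AE4 score of the locus was 113.8, at chr12:86483013-86483951, 61.8 kb after the second start. It was the only AE4 peak of the locus at 100 or above, where 13.6% of the whole AE4 list were. The next were 94.5 at chr12:86426632-86427525, inside the highest H1foo peak, and 82.8 at chr12:86440805-86441455. The lowest was 50.6, and the median 60.5, against 63.8 in the whole list. AE4 widths ran from 364 to 939 bp, and none reached 1 kb, against 4.84% of the list.

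**Figure D1:**
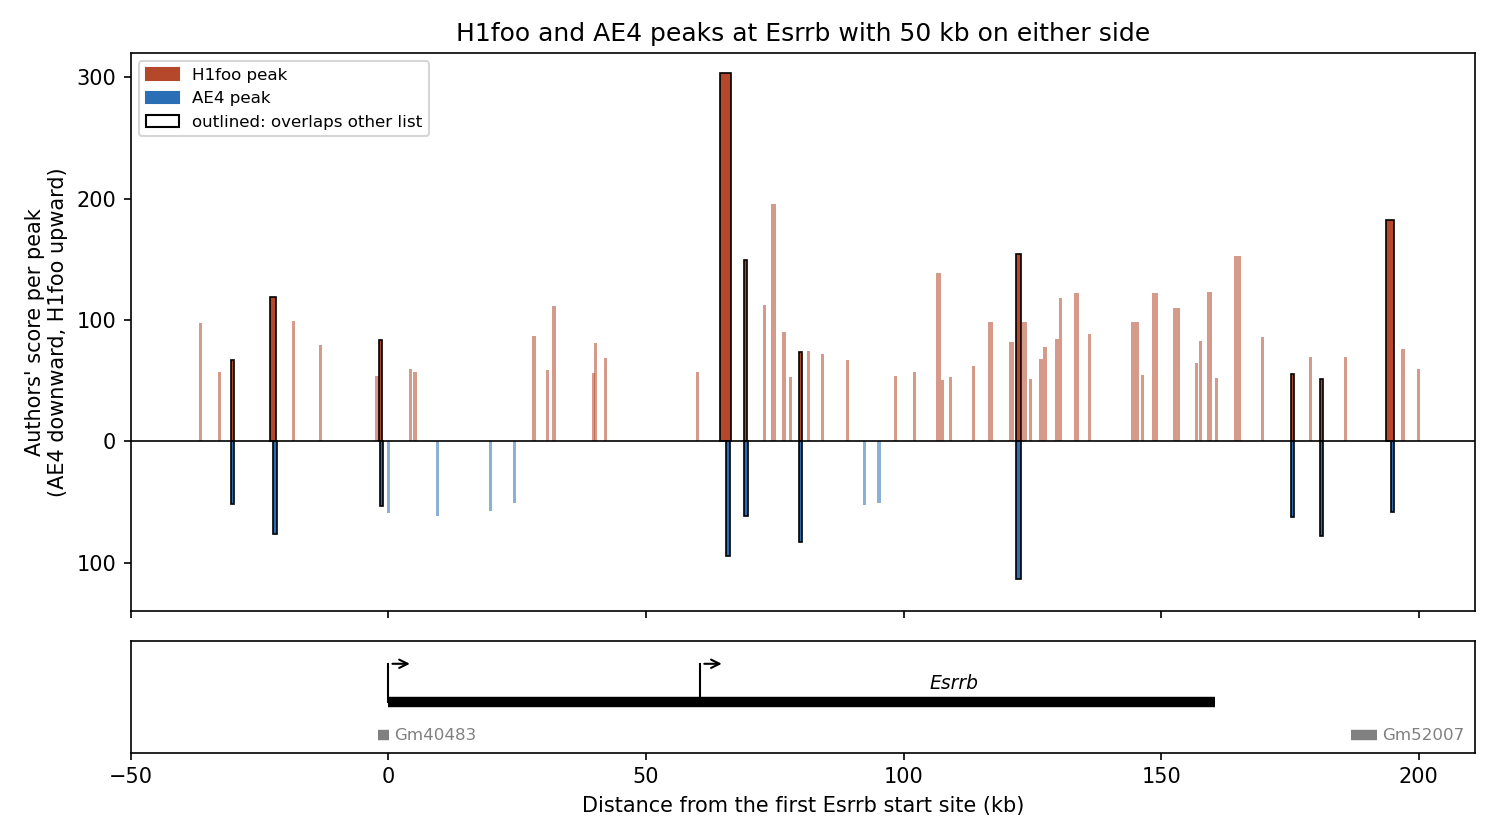
Authors' score (vertical axis, H1foo upward and AE4 downward, no unit) of each peak against the distance in kb from the first Esrrb start site, over the gene and 50 kb on either side; narrow peaks are drawn wider so that they show, black outlines mark peaks that overlap the other list, and arrows mark the start sites. H1foo peaks crowd after the second start at 60.5 kb, while pale AE4 bars without an H1foo partner stand at the first start, in the 24.4 kb after it, and at 92.4 and 95.2 kb.

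Of the 16 AE4 peaks, 10 or 62.5% overlapped an H1foo peak by at least 1 bp (exact Clopper-Pearson 95% interval 35.4 to 84.8%), where 51.2% of the whole AE4 list did. Of the 61 H1foo peaks, 10 or 16.4% overlapped an AE4 peak (8.15 to 28.1%), where 24.1% of the whole H1foo list did. Both intervals contain the share of the whole list, and whether the shares differ was not tested. With the H1foo list cut to the length of the AE4 list, 6 of the 16 AE4 peaks or 37.5% overlapped. With both lists at a score of at least 75, 3 of 32 H1foo peaks or 9.38% did. The intervals cover counting error only and take peaks as independent, which neighbouring peaks need not be.

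As counted in these lists, the shared part was smaller in the gene than in its flanks. All 6 AE4 peaks that lay wholly in the flanks overlapped an H1foo peak, and 4 of the 10 that touched the gene did. Of the 44 H1foo peaks that touched the gene, 4 or 9.09% overlapped AE4 (2.53 to 21.7%), as did 3 of 8 before the gene and 3 of 10 after it. The share was 24.1% over the whole H1foo list, and 19.6% over H1foo peaks inside 702 genes of similar length and gene density, described below. The interval for the gene contains the second value and not the first, but it takes neighbouring peaks as independent and is no test. For AE4 peaks the share was 40% in the gene and 41.9% inside the 702 genes. The 4 shared places in the gene were all beyond the second start, at 4.89, 8.84, 19.5 and 61.9 kb from it by the centre of the H1foo peak. Between the start sites none of 9 H1foo and none of 4 AE4 peaks overlapped. The split into gene and flanks was described after the peaks had been seen and was not tested.

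Shared H1foo peaks had scores from 51.0 to 303.8 with a median of 100.9, and unshared ones from 50.1 to 195.5 with a median of 76.5. Their median widths were 611 and 604 bp. Among AE4 peaks the median score was 69.1 for the 10 shared and 55.2 for the 6 unshared ones, with the highest unshared score at 61.8. The ranges of shared and unshared scores overlapped in both lists.

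The 6 AE4 peaks without an H1foo partner lay at 0.03, 9.43, 19.7, 24.4, 92.4 and 95.2 kb after the first start, and their scores were 59.2, 61.8, 57.6, 50.7, 52.7 and 50.6. The distance from each to the nearest H1foo peak was between 1038 and 8000 bp. They fell into runs. From 86366429 to 86389066 there were 22.6 kb without an H1foo peak, the longest H1foo gap of the locus, and this gap held 3 of the 6 AE4 peaks. Across the genome, 1343 of 97774 stretches between neighbouring H1foo peaks, or 1.37%, held at least 3 AE4 peaks. Among the 4251 of similar length, from 18.1 to 28.3 kb, 102 or 2.40% did. The number of AE4 peaks in this gap was thus uncommon but shared by many places. A stretch of 8.87 kb between H1foo peaks, from 86450417 to 86459290, held another 2.

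The reverse arrangement stood at the end of the gene. No AE4 peak lay in the 52.4 kb from 86483952 to 86536333, which begin just after the AE4 peak with the highest score of the locus. This stretch takes in the last 37.7 kb of Esrrb and 14.7 kb beyond it, and it held 18 H1foo peaks, of which 16 touched the gene. H1foo peaks covered 27.4% of its bases. Their scores ran from 51.5 to 152.5 with a median of 87.4, 6 were at 100 or above, and 6 were at least 1 kb wide. Of 47428 stretches between neighbouring AE4 peaks in the genome, 42 or 0.0886% held 18 or more H1foo peaks, and 26 held more than Esrrb's. These 42 lay on 18 chromosomes, 4 of them on chromosome 12. Among the 2522 of similar length, from 41.9 to 65.5 kb, the median was 2 H1foo peaks, and 5 had 18 or more. The stretch was picked after its values were seen, so these ranks describe it and are no test.

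The same stretch was counted with shorter H1foo lists. With only the 47449 highest-scoring H1foo peaks, as many as AE4 has on the assembled chromosomes, it held 13, and 10 stretches of the genome held as many or more. With H1foo peaks of at least 100 only it held 6, and 54 stretches, this one included, held as many or more. Other stretches at Esrrb were less extreme. The 26.4 kb between the AE4 peaks at 86456661 and 86483013 held 8 H1foo peaks, and the 40.9 kb between those at 86385722 and 86426632, which contain the second start, held 7.

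**Figure D2:**
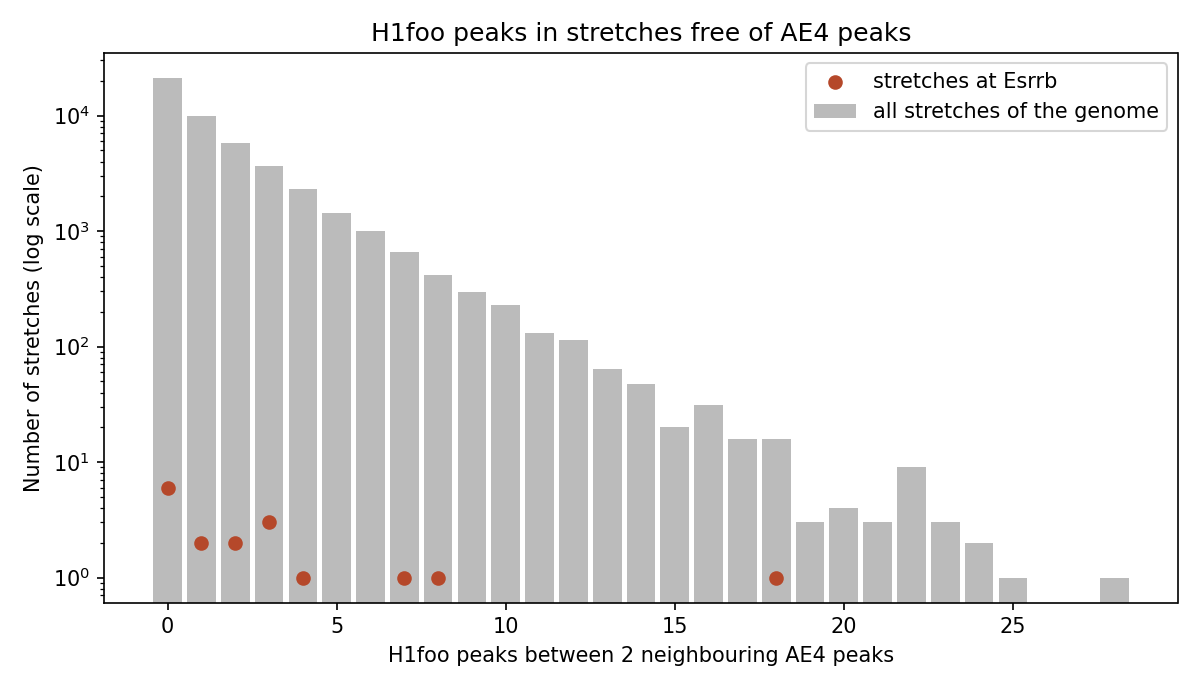
Number of stretches (vertical axis, log scale) against the number of H1foo peaks lying between 2 neighbouring AE4 peaks. Grey bars are all 47428 stretches of the genome. Each point gives how many of the 17 stretches that touch the Esrrb locus hold that number of H1foo peaks. The point at 18 is the stretch over the end of Esrrb, where only 42 stretches have 18 or more.

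By the median gap, H1foo peaks of the locus were slightly closer together than over the whole list. The gap between neighbours had a median of 2162.5 bp and ran from 9 bp to 22.6 kb, and 11 of 60 gaps, or 18.3%, were under 500 bp, against 18.5% over the genome. AE4 gaps had a median of 9915 bp and ran from 1047 bp to 52.4 kb, and none of the 15 was under 500 bp, against 9.56% over the genome. Over the whole lists the median gap was 2596 bp for H1foo and 7883 bp for AE4. The longest H1foo gaps were the 22.6 kb described above, 17.4 kb just before the second start, from 86403403 to 86420846, and 10.3 kb before the first start. Among the 513 comparison genes with enough peaks, the median H1foo gap in the gene and 50 kb on either side was 9956 bp, and 51 genes had a shorter median gap than Esrrb. Many of these genes hold few peaks. In the 116 with at least 10 H1foo and 5 AE4 peaks inside, a subset chosen after the values were seen, the median was 3570.5 bp. There 31 genes had a shorter median gap than Esrrb.

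The next comparison set Esrrb against genes of similar length and local gene density. There were 702 other protein-coding genes whose length was within 1.5-fold of the 160.5 kb of Esrrb and whose surrounding 1 Mb held between 6 and 12 protein-coding genes, where that of Esrrb held 9. Of these genes 72.2% had at least 1 H1foo peak inside and 68.2% at least 1 AE4 peak. Their median was 1.64 H1foo peaks and 0.903 AE4 peaks per 100 kb. Esrrb, with 27.4 and 6.23, was 16.7-fold above the first median and 6.90-fold above the second. Only 21 of 702 genes were denser in H1foo, and 66 were denser in AE4. By covered bases Esrrb stood at 19.5% for H1foo, with 22 genes higher, and at 3.33% for AE4, with 54 higher. Genes are not replicates, and these positions are descriptions.

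Each of the 21 genes above Esrrb in H1foo density was also above it in AE4 density, at 7.09 to 29.96 AE4 peaks per 100 kb. Another 45 genes had more AE4 and less H1foo per 100 kb than Esrrb. The densest in H1foo were Septin9 on chromosome 11, a cytoskeletal GTPase gene, with 88 H1foo and 38 AE4 peaks, Zmynd8 on chromosome 2, which encodes a chromatin reader, with 56 and 16, and Kazn on chromosome 4, with 66 and 22. At the other end 195 genes had no H1foo peak inside, so no lowest genes were singled out. Esrrb had 4.40 H1foo peaks per AE4 peak, and the 702 genes together had 2.12. Of 150 comparison genes with at least 10 H1foo peaks and an AE4 peak, 22 had a higher ratio than Esrrb, and their median was 2.43.

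The genes most like Esrrb in both densities were Bcar3, an adaptor of integrin signalling, Dnmt3a, a DNA methyltransferase of early development, Synj2, a phosphoinositide phosphatase, Hunk, a kinase, and Cradd, an adaptor of cell death signalling. They were the 5 with the smallest distance over the square roots of the 2 densities. Bcar3 had 27.2 H1foo and 7.24 AE4 peaks per 100 kb. Dnmt3a, which lies on chromosome 12 as Esrrb does, had 31.9 and 7.09. Synj2 had 22.7 and 5.24, Hunk 24.5 and 8.75, and Cradd 21.4 and 6.02. In these 5 genes between 11.1 and 20% of H1foo peaks overlapped AE4, against 9.09% at Esrrb. The most H1foo peaks between neighbouring AE4 peaks, counted with 50 kb on either side, was between 7 and 10 in these genes and 18 at Esrrb. All 5 are shorter than Esrrb, at 110435 to 149400 bp against 160512 bp. They hold 26 to 36 H1foo peaks against 44, and the counts were not corrected for either.

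**Figure D3:**
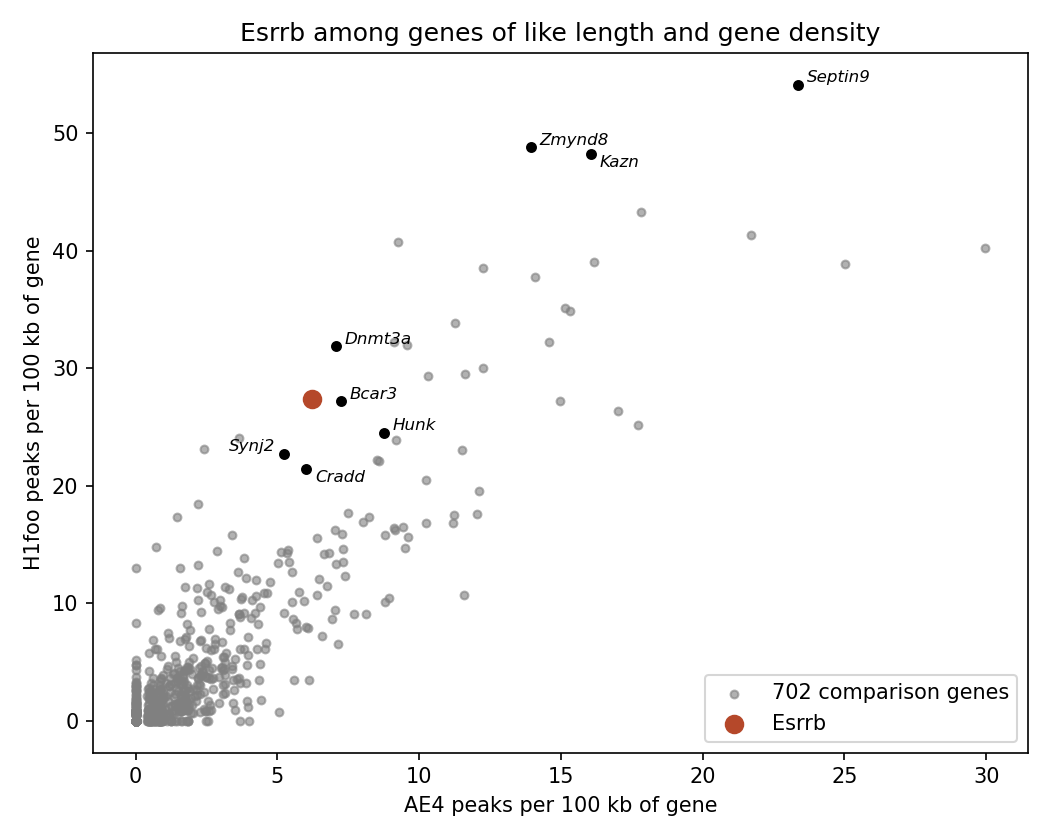
H1foo peaks per 100 kb of gene (vertical axis) against AE4 peaks per 100 kb of gene (horizontal axis) for Esrrb and 702 genes of like length and gene density, with the genes named by rule in black. Esrrb lies at 27.4 and 6.23, and each of the 21 genes above it lies to its right.

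Sharing and long stretches were compared in the same genes. Of the 116 with at least 10 H1foo and 5 AE4 peaks inside, a subset chosen after the values were seen, 107 had a larger share of H1foo peaks that overlap AE4 than the 9.09% of Esrrb, 3 had the same and 6 had a smaller one, and the median was 23.3%. Among all 507 genes with an H1foo peak, where a single peak can set the share, 247 were above Esrrb and 257 below. With 50 kb on either side Esrrb had 16.4%, and 80 of the 116 genes were above it. For AE4 peaks the shared part of the gene was 40%, with a median of 50% over the 116 genes, 76 of them above Esrrb. With 50 kb on either side it was 62.5%, and 22 of the 116 were above it. Esrrb was therefore low among these genes in the shared part of its H1foo peaks inside the gene, and less far from their middle in the other 3 shares. The share of H1foo peaks also depends on how many AE4 peaks stand against them, which were 10 against 44 in Esrrb. There were 4.40 H1foo peaks per AE4 peak in Esrrb and 2.12 in the 702 genes together. The low position was not corrected for this ratio, so it is no separate trait. Stretches were counted between AE4 peaks that lay in the gene or within 50 kb of it. Of all 702 genes, only Ddah1, with 21, and Celsr1, with 22, had a stretch with more H1foo peaks between neighbouring AE4 peaks than Esrrb. Ldlrad3, Myo1e and Nmnat2 had one with as many. Within the 116 genes, 0 had more and 1, Ldlrad3, had as many. These 5 genes were named after their values were seen.

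Among all 21774 protein-coding genes, whatever their length, 72 had more H1foo peaks inside than the 44 of Esrrb and 8 others had as many. More than 10 AE4 peaks were found in 426 genes, or 1.96%. Longer genes can hold more peaks, so this order is one of numbers and not of density.

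Esrrb was not the only dense place of its chromosome region. Counted in steps of 50 kb over 1 Mb on either side of its midpoint, the 4 steps that touch Esrrb held 7, 13, 17 and 15 H1foo centres along the chromosome. The 36 other steps held between 0 and 19, with a median of 7. Going outward from the start of the gene, the steps held 6, 2 and 3 H1foo centres, and then 15 in a step of Ift43. The step with 2 lies over Gpatch2l. The step with 6, from 86291372 to 86341371, lies mostly beyond the end of Gpatch2l at 86294657 and takes in part of the flank before Esrrb. Beyond the gene end they held 7, 4, 8 and 12, and further on up to 19 between Lrrc74a and Irf2bpl. AE4 centres in the 4 Esrrb steps were 5, 3, 3 and 1, and in the other 36 steps between 0 and 9 with a median of 2.5. The first Esrrb step was the lowest of the 4 in H1foo and the highest in AE4.

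**Figure D4:**
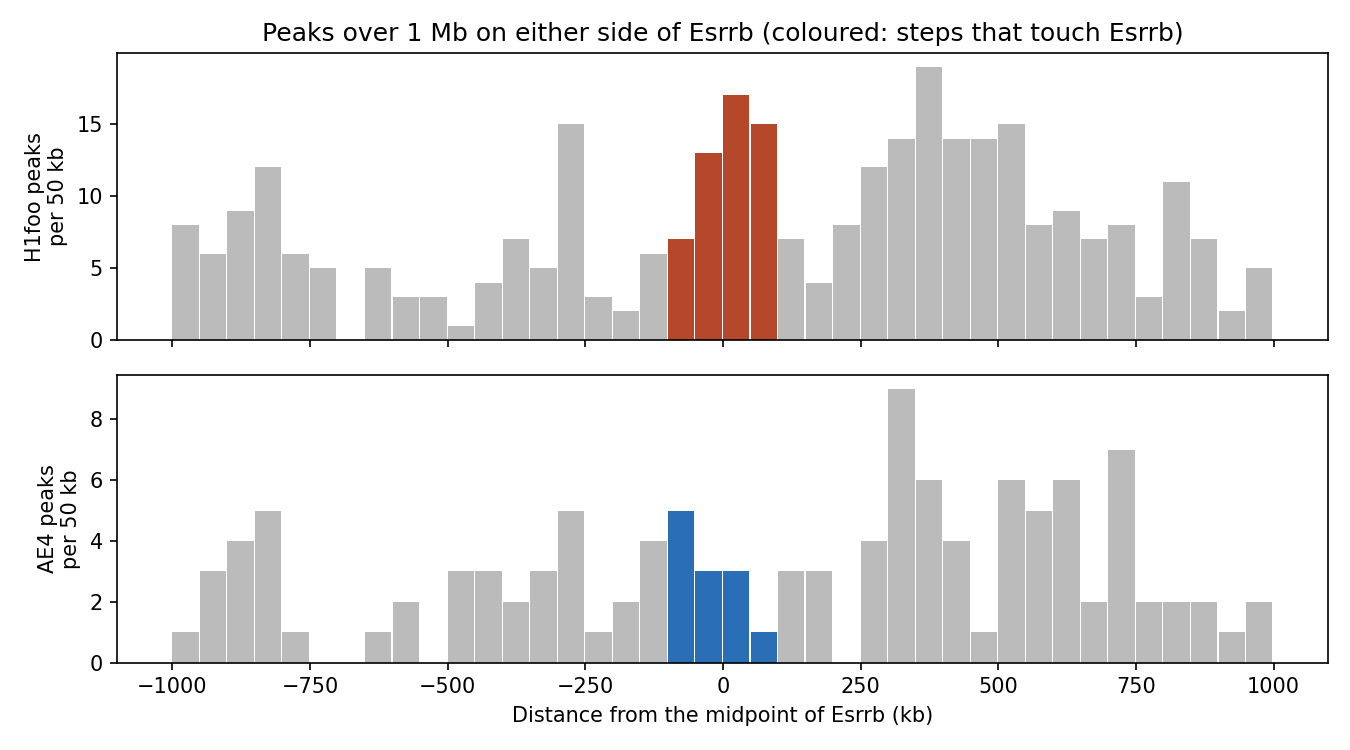
Number of peak centres per step of 50 kb (vertical axes, H1foo above and AE4 below) against the distance in kb from the midpoint of Esrrb; coloured bars touch the gene. The coloured H1foo bars reach 17 and the coloured AE4 bars 5, and a further block of high bars lies 250 to 550 kb beyond the midpoint.

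No other protein-coding gene overlapped the locus. Gpatch2l ends at 86294657 and Vash1 begins at 86678700, so the flanks of the window lie between genes apart from the lncRNA gene Gm40483, the end of the lncRNA gene Gm32666 and the pseudogene Gm52007. A pair of H1foo peaks stood close before the first start. Of these, chr12:86358626-86358985 lay just outside Gm40483, past the end of its transcript, and overlapped no AE4 peak. The other, chr12:86359329-86359907, lay wholly inside Gm40483, had a score of 83.4 and overlapped an AE4 peak.

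The family and the network of Esrrb were taken from 3 lists, each gene with 50 kb on either side so that short genes could be compared. Of the 26 genes other than Esrrb, 19 had an H1foo peak inside the gene and 13 an AE4 peak, where 56.1 and 42.7% of all protein-coding genes did. With 50 kb on either side 24 and 25 had one, against 76.8 and 73.4%. The median window density of the 26 was 9.65 H1foo and 4.41 AE4 peaks per 100 kb, and that of all genes 4.36 and 1.96. The window of Esrrb had 23.4 and 6.14 per 100 kb. It was exceeded by 7 of the 26 in H1foo and by 11 in AE4. Among all 21774 protein-coding genes, 3796 had a denser H1foo window than Esrrb and 6120 a denser AE4 window.

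The 3 oestrogen-related receptors differed widely. Esrra, a regulator of mitochondrial energy genes, had 2 H1foo peaks and 1 AE4 peak in a gene of 11072 bp, and its window reached 28.8 H1foo and 12.6 AE4 peaks per 100 kb. Esrrg, in a gene of 606376 bp, had 3 H1foo and 3 AE4 peaks and a window density of 0.566 and 0.425. Esrrb stood between them in H1foo window density, and the 1 Mb around these genes held 29, 9 and 2 protein-coding genes for Esrra, Esrrb and Esrrg. The windows before the RefSeq starts of Esrra and Esrrg overlapped no peak of either list.

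Of 12 regulators, partners and cofactors, 10 had an H1foo peak inside and 8 an AE4 peak. Among all protein-coding genes 56.1 and 42.7% did. Sall4, a zinc finger partner of the pluripotency factors, had the densest window with 34.5 H1foo and 10.1 AE4 peaks per 100 kb. Pou5f1, which encodes Oct4, had 26.7 and 10.5, and Ncoa3, a coactivator of Esrrb, 24.4 and 9.97. Most H1foo peaks of these windows lay in the flanks. The gene itself held 5 of 41 at Sall4, 3 of 28 at Pou5f1 and 9 of 44 at Ncoa3. Nanog, which activates Esrrb, came close to it with 22.4 and 5.6. Tfcp2l1 had 15.3 and 7.00, and Tcf7l1, the repressor, 4.95 and 2.66. Sox2 had no peak inside, and 8.78 H1foo and 1.95 AE4 peaks per 100 kb in its window. Nr0b1, on the X chromosome, had no H1foo peak and 1 AE4 peak in its window.

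Of 12 further genes of the naive network, 7 had an H1foo peak inside and 3 an AE4 peak. Over all protein-coding genes these shares were 56.1 and 42.7%. Lefty1, an inhibitor of Nodal signalling, and Fgf4, a growth factor, had windows with 44.5 and 37.6 H1foo peaks per 100 kb. AE4 stood at 15.5 and 6.74, with no AE4 peak inside either gene. Klf2, a Krüppel-like factor of the naive state, had 36.1 and 21.4, with no peak of either list in the gene itself. Tbx3, Dppa3 and Klf5 had 13.1, 11.6 and 8.72 H1foo peaks per 100 kb, also without a peak in the gene itself. Klf4 had 1 H1foo peak in its whole window and no AE4 peak, and Zfp42, also called Rex1, had 1 AE4 peak and no H1foo peak. The most H1foo peaks between neighbouring AE4 peaks was 12 among these 26 genes, at Ncoa3 and Lefty1, against 18 at Esrrb. Stretches were counted within each window, and most of these genes are shorter than Esrrb. Ncoa3 spans 80606 bp and Lefty1 3380 bp, against 160512 bp at Esrrb. A longer window can hold longer stretches, and the counts were not corrected for this. The windows of Nanog and Dppa3, neighbours on chromosome 6, overlap and share peaks.

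**Figure D5:**
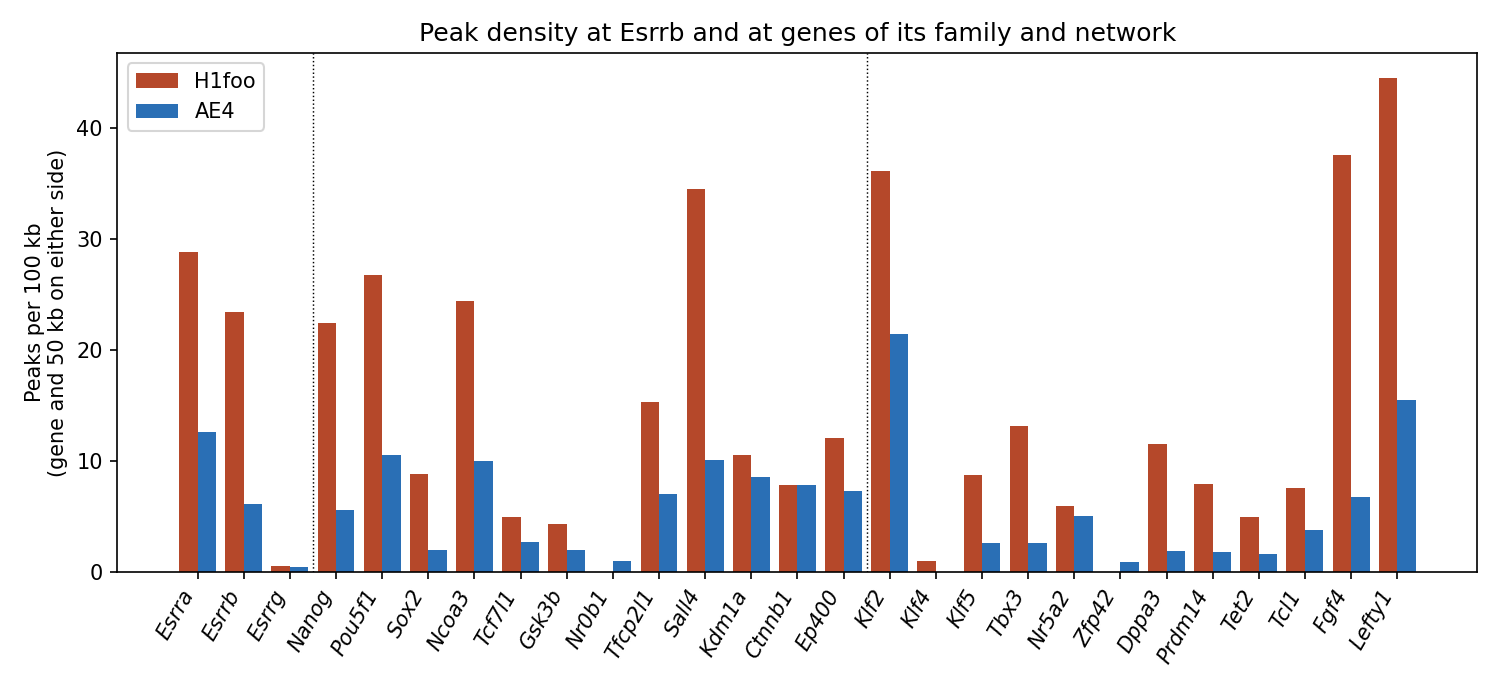
Peaks per 100 kb of the gene with 50 kb on either side (vertical axis) for H1foo and AE4 at Esrrb and 26 genes; dotted lines separate the oestrogen-related receptors, the regulators and partners, and the other network genes. Esrrb has 23.4 H1foo peaks per 100 kb, and Lefty1 has the tallest bar at 44.5.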

How the data were processed

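Chromatin had been cut enzymatically and libraries made with the KAPA Hyper Prep kit, per the labels' protocols. The aligner Bowtie 1.1.2 and the build mm10 are named, per the submitters' processing notes, and peaks carry MACS names, per the file headers. Not given in the sources used here is any other setting. The authors deposited 1 list per antibody, with a score per peak whose scale is not named and whose lowest value is 50. Scores served to rank and filter within a list.

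Starts were set to positions counted from 1, and the 21 assembled chromosomes were used for all comparisons between lists or genes. Gene spans and start sites were RefSeq's on GRCm38.p6, and promoter windows existed for 17492 protein-coding genes. Exons were not used here. Overlap meant at least 1 bp. Routines, in Python 3.11.15 with NumPy 2.4.6 and pandas 2.3.3, were tested on simulated intervals. The locus, gene lists and settings were chosen with earlier results of these data known. Named genes were Esrrb, protein-coding genes overlapping its window, the 5 comparison genes nearest in both densities, the 3 highest in H1foo density, and the members of 3 lists. The rule also asked for the 3 lowest, which were not named because 195 genes tied at no H1foo peak. Alternatives were window sizes, score thresholds, overlap rules and matching rules.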

Additional observations from a re-analysis of the deposited data

How the results depend on the processing

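No paired analysis was possible because each antibody has 1 list with no value per library, and for the same reason no library could be left out. Settings that use the H1foo list cut to the length of the AE4 list, the subset of dense comparison genes, and those for the long stretch were chosen after seeing the data. The 61 H1foo and 16 AE4 peaks of the locus became 32 and 5 at a score of at least 75 and 15 and 1 at a score of at least 100, since fewer peaks remain. H1foo fell to 33 peaks with its list cut to the length of the AE4 list, and AE4 to 10 without flanks. At a score of at least 100 in both lists, 1 of 15 H1foo peaks (6.67%) and 1 of 1 AE4 peak (100%) overlapped the other list. The share of comparison genes denser than Esrrb in H1foo, 2.99%, became 7.94% with genes counted in 2 Mb (10 of 126 genes) and 8.82% on chromosome 12 alone (3 of 34). For AE4 it was 9.40% and became 21.4% and 17.6% in these settings, 12.8% with gene numbers within 1 and 11.8% at a score of at least 100. The cause of these shifts was not tested. With H1foo peaks of at least 100 only, the long stretch held 6 in place of 18. The share of genes with a smaller shared part of H1foo peaks than Esrrb was 50.7% over all genes with a peak and 5.17% over the dense subset. With the H1foo list cut to the length of the AE4 list, the shared part of AE4 peaks was 37.5% in place of 62.5%. With both lists at a score of at least 75, that of H1foo peaks was 9.38% in place of 16.4%; both lie within the wide intervals of the main values. With both lists at a score of at least 100 the AE4-free stretch held 14 H1foo peaks, but over 266695 bp in place of 52382 bp. The other settings left counts and gaps within 1.5 times the values above, and shares within their exact 95% binomial intervals. Scores have no error, and depth is unknown, which limits what an absent peak can show.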
